A study of Homo sapiens with 4 samples.

Results

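KLK2, KLK3, TMPRSS2, FOLH1, PSCA, STEAP1, STEAP2 and HOXB13 are genes of the prostate lineage, several of them driven by androgen, and their signal was examined in PC3 cells with and without knockdown of ALKBH3. They are 8 of the 19102 genes that could be named on the array and were chosen by name as lineage and androgen-driven genes. All 8 had at least 1 probe, 12 probes of 34127 in all, each printed as 1 spot an array. The spot tables carry transcript accessions in place of gene symbols, so the probes were found by matching those accessions to RefSeq genes (GRCh38.p14). PC3 is an established prostate cancer cell line. Lentiviral infection gave the cells an shRNA against ALKBH3, a demethylase that repairs alkylated single-stranded DNA and RNA, or an shRNA against GFP as control, and all cells were selected with puromycin and collected after 48 h or 96 h. Each of the 4 combinations was measured on 1 single-colour array, so an shRNA was repeated only across the 2 time points, and precision is limited by having 4 arrays. The ALKBH3 hairpin is not named in the labels, which also leave unsaid whether the time points came from separate infections, so p-values measure the spread between these arrays only.

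The androgen receptor is a hormone-activated transcription factor that binds a pair of inverted short sites in DNA and drives genes of the secretory luminal cells of the prostate. KLK2 and KLK3, of which the latter encodes prostate-specific antigen, are its best known targets, and their loss is a mark of prostate cancer cells that grow without the receptor. PC3 cells are known to lack signalling through it. The receptor's own gene was not analysed here. HOXB13, a homeobox transcription factor, and FOXA1, a pioneer factor that opens chromatin, mark the prostate lineage and can be expressed without androgen.

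The promoters of KLK2 and KLK3 are shown because both carry an androgen receptor motif close to the start site, while of their 3 probes only 1 gave a signal well above background. Windows from 250 bases before to 50 bases after the transcription start were taken from RefSeq, GRCh38.p14. The motif searched was GNACANNNNGTNC, a loosely defined pair of inverted sites in which N is any base, on both strands. Of 35116 windows 2.19% hold it. The table holds windows for 4 of the 8 genes, KLK2, KLK3, STEAP1 and STEAP2. Of their 5 windows those of KLK2 and KLK3 match. Below are the bases from -200 to -101 before the start of each gene on the plus strand, with the match in capitals. The KLK2 stretch is chr19:50873239-50873338 and that of KLK3 chr19:50854715-50854814.
KLK2: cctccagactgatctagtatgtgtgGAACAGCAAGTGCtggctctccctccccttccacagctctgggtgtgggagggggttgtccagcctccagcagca
KLK3: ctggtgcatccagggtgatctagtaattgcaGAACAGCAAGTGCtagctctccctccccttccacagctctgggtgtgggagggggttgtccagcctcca
The match lies at -175 to -163 in KLK2 and at -169 to -157 in KLK3 and has the same letters in both. Laid over each other at the match without gaps, the stretches have 86 of 94 bases in common. A match is a description of the letters and not evidence of binding in these cells.

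On each array the software judged whether a spot was well above background. That was so for between 67.0% and 70.9% of all probes on an array, and on all 4 arrays for 64.8% of them. Of the 12 probes for the prostate genes 8 were well above background on all 4 arrays, 1 on a single array and 3 on none. The 8 belong to 6 genes, KLK2, TMPRSS2, PSCA, STEAP1, STEAP2 and HOXB13, so that KLK3 and FOLH1 were the genes without a consistent signal. The dimmest spot that counted as well above background had a processed intensity of between 21.0 and 30.6, depending on the array. Probes differ in how brightly they report a transcript, so intensities are compared below between arrays and not between genes.

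**Figure D1:**
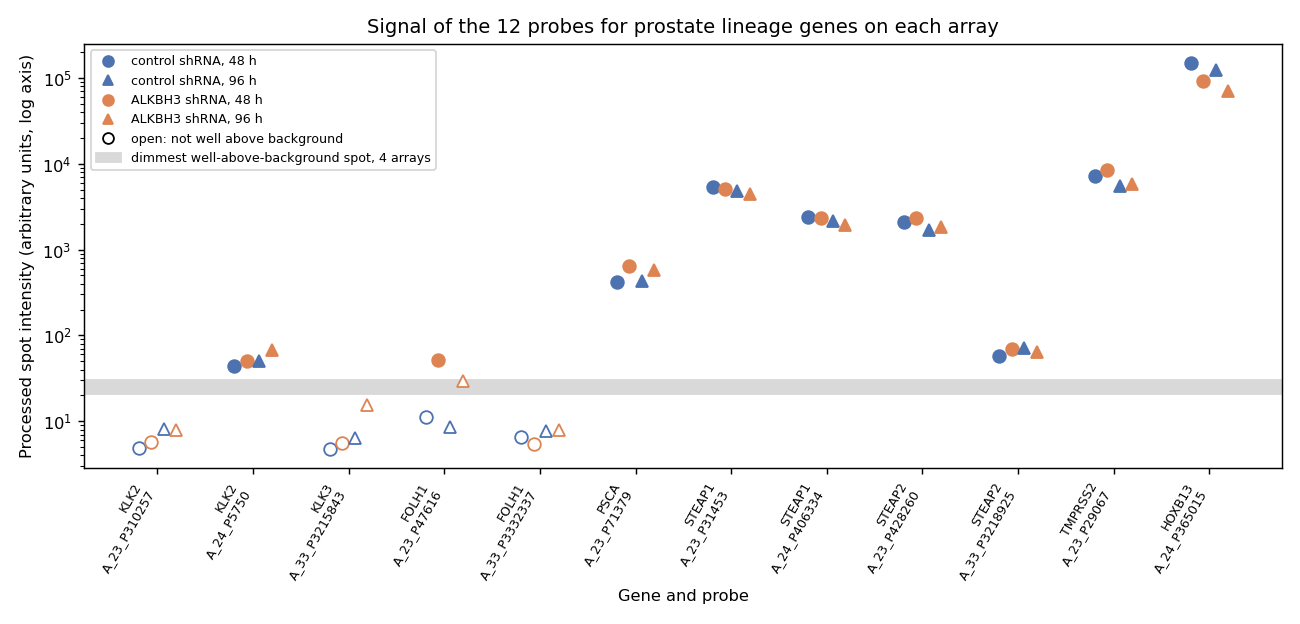
Processed spot intensity (arbitrary units, log axis) of the 12 probes for the 8 genes on each of the 4 arrays, with colour for the shRNA, circles for 48 h, triangles for 96 h and open symbols where the spot was not well above background. The grey band spans the dimmest spots that were well above background on the 4 arrays, from 21.0 to 30.6. KLK3, 1 probe of KLK2 and 1 of FOLH1 lie below the band on all arrays, and the other FOLH1 probe rises above it on 1 array.

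Among the secreted kallikrein proteases, KLK3 was not well above background on any array, as read by its only probe, for NM_001030047. Its probe read 4.81 in control and 5.57 in knockdown cells on the 48 h slide, then 6.30 and 15.3 on the 96 h slide. The KLK2 probe for NM_001002231 was likewise not well above background, at 4.90, 5.81, 8.23 and 8.02 in the same order. The other KLK2 probe, for NM_005551, gave 43.7, 50.8, 50.6 and 67.2 and was well above background on all 4 arrays, so the KLK2 probes disagree. KLK2 and KLK3 are close copies of each other, and the files do not give the probe sequences, so the signal of a KLK2 probe cannot be assigned to KLK2 with certainty.

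TMPRSS2, a transmembrane serine protease whose androgen-driven promoter is often fused to ETS genes in prostate cancer, gave 7153 and 8442 at 48 h and 5463 and 5860 at 96 h, with control and ALKBH3 shRNA in that order. It was well above background throughout. FOLH1 encodes prostate-specific membrane antigen, a surface folate hydrolase. Its probe for NM_004476 gave 11.1 and 52.2 at 48 h and 8.64 and 29.6 at 96 h, and only the ALKBH3 shRNA array at 48 h was well above background. The FOLH1 probe for NM_001014986 stayed between 5.38 and 7.90 and was not well above background on any array. FOLH1 was therefore not tested. With its control values set to the dimmest spots well above background, the first FOLH1 probe was 1.51-fold higher with ALKBH3 shRNA. This fold was taken from the mean of both ALKBH3 shRNA arrays, of which 1 of 2 had a measured signal. It is not a strict lower limit. At 96 h the value of 29.6 lay below the dimmest measured control spot, 30.6, so no limit holds there alone. The FOLH1 probes disagree, as the second has no measured signal.

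Among the surface antigens, PSCA, a small protein anchored to the membrane by a lipid, gave 418 and 645 at 48 h and 436 and 576 at 96 h. Both ALKBH3 shRNA arrays were above both control arrays. STEAP1 and STEAP2 encode membrane proteins of a metalloreductase family. The STEAP1 probe A_23_P31453 gave 5318, 5077, 4834 and 4440 in the same order, and A_24_P406334 gave 2383, 2341, 2171 and 1947, both falling in the order in which they are listed here. The STEAP2 probe A_23_P428260 gave 2091, 2362, 1674 and 1826. The STEAP2 probe A_33_P3218925 gave 57.6, 69.9, 71.8 and 64.2, well above background on every array and with no order shared with the first.

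HOXB13 read 148179 in control and 92229 in knockdown cells on the 48 h slide, then 123057 and 70699 on the 96 h slide. No spot on any array was saturated. Both ALKBH3 shRNA arrays were below both control arrays, and within each shRNA the 96 h array was below that of 48 h.

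For the comparison of the shRNAs, log2 intensities were taken relative to the 75th percentile of each array, and a probe was tested if both arrays of either shRNA had it well above background. These were 23260 probes, among them the 8 named above. As a check of the knockdown, the ALKBH3 probes A_23_P35989 and A_33_P3225250 changed on the log2 scale by -2.01 and -1.72 on the 48 h slide and by -2.05 and -1.49 on the other. Over all tested probes 226, or 0.972%, were at least 2-fold higher with an unadjusted limma p below 0.05, the cutoffs of the study, and 50, or 0.215%, were lower. Without the 48 h control array or the 96 h ALKBH3 shRNA array the count of higher probes was 351 and 427, and without the 48 h ALKBH3 shRNA array or the 96 h control array that of lower probes was 125 and 92. Of the 8 probes for prostate genes 0 passed in either direction. At an unadjusted limma p below 0.05 without the fold cutoff 2 of the 8 passed, HOXB13 and PSCA, and 0 passed the Benjamini-Hochberg adjusted p, as did 0 of all 23260 probes. By the unpaired test named in the methods 1 of the 8 had an unadjusted p below 0.05, PSCA, and 0 an adjusted one. The ALKBH3 shRNA arrays lay above both controls for 2 of the 8, against 19.6% of all tested probes, and below both for 1 of the 8, against 16.4%, so these shares are close to those of all probes.

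HOXB13 had the largest change of the 8, on the log2 scale -0.75 within the 48 h slide and -0.81 within the 96 h slide. The mean was 6.32 ± 0.26 (SD, n = 2) with control and 5.53 ± 0.30 with ALKBH3 shRNA, as log2 relative to the 75th percentile. This is a log2 fold change of -0.78 over the 4 arrays (standard error 0.22, 95% interval -1.36 to -0.21, limma adjusted p = 0.510), or 1.72-fold lower. With time point as a replicate block, which compares the shRNAs within a slide, the adjusted p in limma was 0.0426. In that fit 1.43% of all tested probes passed as higher and 0.606% as lower, and HOXB13 was the only one of the 8 that passed. Leaving out any one array kept the HOXB13 log2 fold change between -0.997 and -0.57. The unblocked adjusted p ranged from 0.456 to 0.999 over the other settings tried.

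For PSCA the log2 difference was 0.56 within the 48 h slide and 0.39 within the 96 h slide. Over the 4 arrays it was 0.47 (standard error 0.14, 95% interval 0.12 to 0.83, limma adjusted p = 0.524), or 1.39-fold higher. The replicate block brought the limma adjusted p to 0.0833. PSCA therefore passed no adjusted threshold, though it was higher with ALKBH3 shRNA at 48 h and at 96 h alike.

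For the other 6 probes the difference between the shRNAs was within the error of the unblocked limma fit, although both ALKBH3 shRNA arrays lay above both controls for KLK2. That fit takes no account of the time point. The log2 fold change was 0.27 for KLK2 (NM_005551 probe, 95% interval -0.17 to 0.72) and 0.13 for TMPRSS2 (95% interval -0.59 to 0.84). It was -0.14 and -0.13 for the STEAP1 probes, with 95% intervals of -0.56 to 0.28 and -0.59 to 0.32. For STEAP2 it was 0.11 for A_23_P428260 (95% interval -0.49 to 0.70) and 0.02 for A_33_P3218925 (95% interval -0.37 to 0.40). The KLK2 value was 0.028 after normexp and quantile normalization, 0.033 with the authors' values and between 0.092 and 0.45 with single arrays left out, lowest without the 96 h ALKBH3 shRNA array and highest without that of 48 h. Its blocked interval ran from 0.00082 to 0.54 (limma adjusted p = 0.218). The blocked intervals of the rest were narrower than the unblocked ones and included 0. They ran from -0.10 to 0.35 for TMPRSS2 and from -0.36 to 0.08 and -0.36 to 0.09 for STEAP1. For STEAP2 they ran from -0.11 to 0.33 and from -0.31 to 0.35. All 6 unblocked intervals include 0 and leave room for changes in either direction, and limma's unblocked adjusted p was between 0.813 and 0.997. The sign of TMPRSS2, of both STEAP2 probes and of A_24_P406334 for STEAP1 turned when a single array was left out. Such a fit sets 1 time point of an shRNA against both of the other, so the time difference enters these values. Within the 48 h and 96 h slides the sign was shared for TMPRSS2 (0.17 and 0.09) and A_24_P406334 (-0.10 and -0.17). It was also shared for A_23_P428260 (0.11 and 0.11) but not for A_33_P3218925 (0.21 and -0.17).

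**Figure D2:**
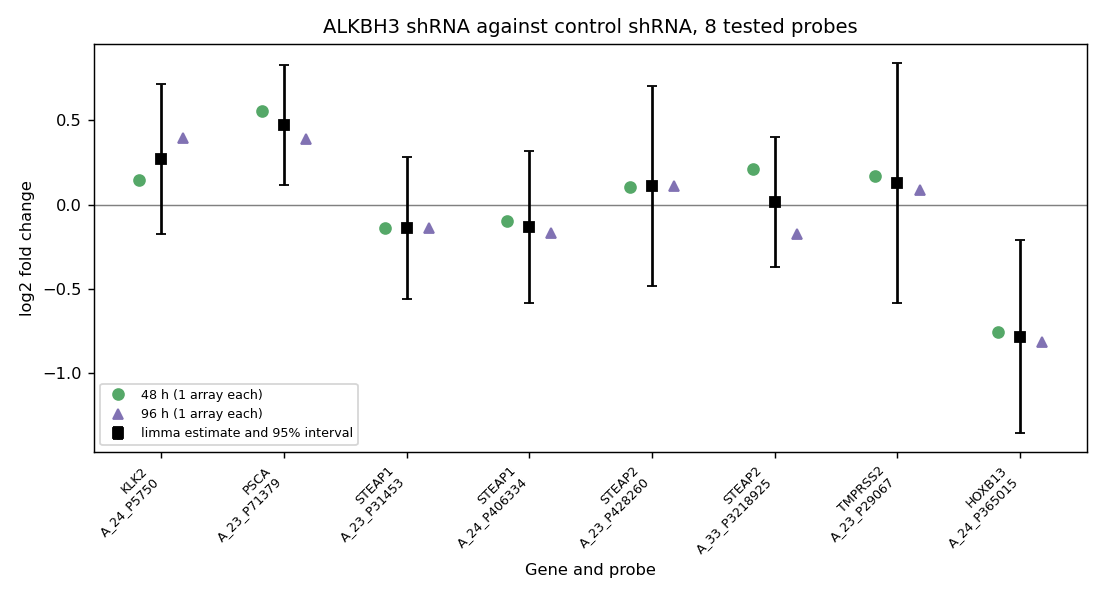
Log2 fold change of ALKBH3 shRNA against control shRNA (vertical axis) for the 8 tested probes, with circles for 48 h and triangles for 96 h (1 array against 1) and squares with bars for the limma estimate over 4 arrays and its 95% interval. The intervals of HOXB13, -1.36 to -0.21, and PSCA, 0.12 to 0.83, leave out 0 and the other 6 include it.

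The prostate genes were also compared between 96 h and 48 h of selection. Each slide carried a single time point, so time and slide cannot be told apart. TMPRSS2 was lower at 96 h than at 48 h by a log2 difference of -0.49 with control and -0.57 with ALKBH3 shRNA. In a limma fit with shRNA and time point its difference was -0.53 (standard error 0.08, 95% interval -0.76 to -0.30, adjusted p = 0.0403). It was the only one of the 8 probes below an adjusted p of 0.05, as were 3.88% of all tested probes for a lower value at 96 h and 4.88% for a higher one. The TMPRSS2 call was lost after quantile normalization (limma adjusted p = 0.0563) and with no filter on dim probes (limma adjusted p = 0.162). The STEAP2 probe A_23_P428260 was lower at 96 h by a log2 difference of -0.42 in the fit (95% interval -0.64 to -0.20, limma adjusted p = 0.0531), and HOXB13 by -0.40 (95% interval -0.62 to -0.18, limma adjusted p = 0.0590). These last 2 passed the adjusted p in limma after normexp background correction, with the authors' normalized values and with a filter on all 4 arrays.

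The STEAP1 probes were lower at 96 h by log2 differences of -0.24 and -0.27, with limma adjusted p = 0.132 and 0.110. Both 96 h arrays lay below both 48 h arrays for 4 of the 8 probes, those of TMPRSS2 and STEAP1 and 1 of STEAP2, against 21.3% of all tested probes, and above both for 0 of the 8, against 30.9%. Values of KLK2 (0.24), PSCA (-0.12) and the other STEAP2 probe (0.02) overlapped between the time points, and their 95% intervals included 0. Those of HOXB13 (-0.40) overlapped as well, though its 95% interval left out 0. The median over all tested probes was 0.03, with quartiles of -0.14 and 0.20.

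**Figure D3:**
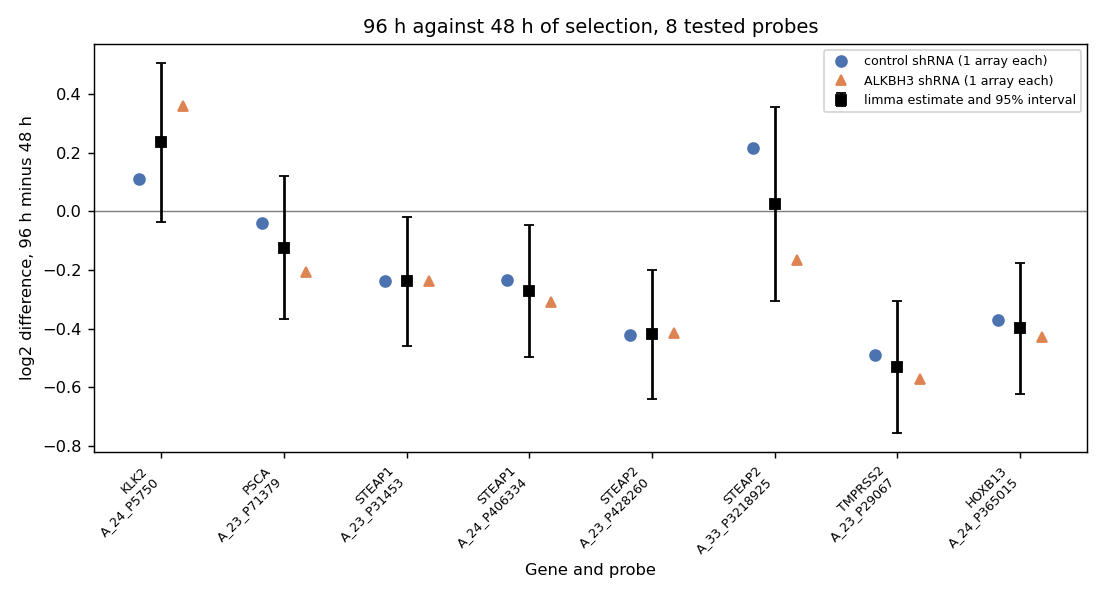
Log2 difference between 96 h and 48 h (vertical axis) for the 8 tested probes, with circles for control shRNA and triangles for ALKBH3 shRNA (1 array against 1) and squares with bars for the limma estimate and its 95% interval. TMPRSS2, both STEAP1 probes, the STEAP2 probe A_23_P428260 and HOXB13 lie below 0 with both shRNAs, between -0.57 and -0.23.

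Relatives of the 8 genes were examined by family. Of 15 kallikreins 5 had a probe well above background on all 4 arrays, KLK2, KLK4, KLK5, KLK6 and KLK9, and 7 on none, KLK1, KLK3, KLK7, KLK10, KLK12, KLK14 and KLK15. None of the 5 passed the study's cutoffs. Their log2 fold changes were between 0.27 and 0.67, with a median of 0.46 where that of all genes tested was 0.02. The shRNAs overlapped for 3 of the 5. Both ALKBH3 shRNA arrays lay above both controls for 2, KLK2 and KLK9, where 19.6% of all tested probes did so. Kallikreins without a tested probe are left out of this median. The kallikrein median was 0.33 after quantile normalization, 0.23 after normexp and quantile normalization and 0.33 without the 96 h control array. In the blocked fit KLK5, a protease of skin shedding, passed (log2 fold change 0.67, limma adjusted p = 0.0498), singled out after its value was seen. Without the block its arrays overlapped and limma's adjusted p was 0.915. KLK4, an androgen-induced kallikrein, read 26.4 and 36.6 at 48 h and 45.8 and 64.9 at 96 h, with control and ALKBH3 shRNA in that order. Of 4 STEAP genes measured, STEAP4 was not well above background on any array and STEAP3 had log2 fold changes of -0.12 and 0.08 for its 2 probes. Of 18 genes of the TMPRSS family and related proteases 6 were well above background throughout and 9 on none, and 0 of 8 tested passed the cutoffs.

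In the family of PSCA, the LY6 and uPAR proteins, 12 of 15 genes were tested. LY6K passed the cutoffs, with intensities of 290 and 747 at 48 h and 278 and 1152 at 96 h and a log2 fold change of 1.67 (standard error 0.23), for which limma's adjusted p was 0.337 without and 0.0464 with the replicate block. Of the 10 genes of the HOXB cluster 7 were tested. HOXB9 passed the cutoffs in the direction opposite to HOXB13, at 36.8 and 84.9 at 48 h and 26.1 and 63.7 at 96 h. The third value was not well above background. HOXB9 was thus tested only through its ALKBH3 shRNA arrays, the group in which it was high. The HOXB9 log2 fold change was 1.21 (standard error 0.27), and limma's adjusted p was 0.403 without and 0.0370 with the replicate block. The cluster's median log2 fold change was 0.09, turning to -0.0056 after quantile normalization and to -0.011 with a filter on all 4 arrays.

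Of 35 other androgen-induced genes on the array 27 had a probe well above background on all 4 arrays and 6 on none, namely HERC3, KLK15, MSMB, PART1, STEAP4 and TRPM8. Of the 29 tested 0 were called higher and 0 lower, with a median log2 fold change of -0.06. The ALKBH3 shRNA arrays lay above both controls for 5 of them, below both for 5, and overlapped for 19, where 19.6% and 16.4% of all tested probes lay above and below. SPDEF, an ETS factor of secretory epithelium singled out after its value was seen, was at -0.44 on the log2 scale, short of the adjusted threshold in limma with or without the block. FKBP5, a chaperone induced by androgen and glucocorticoid, had a log2 fold change of 0.06.

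**Figure D4:**
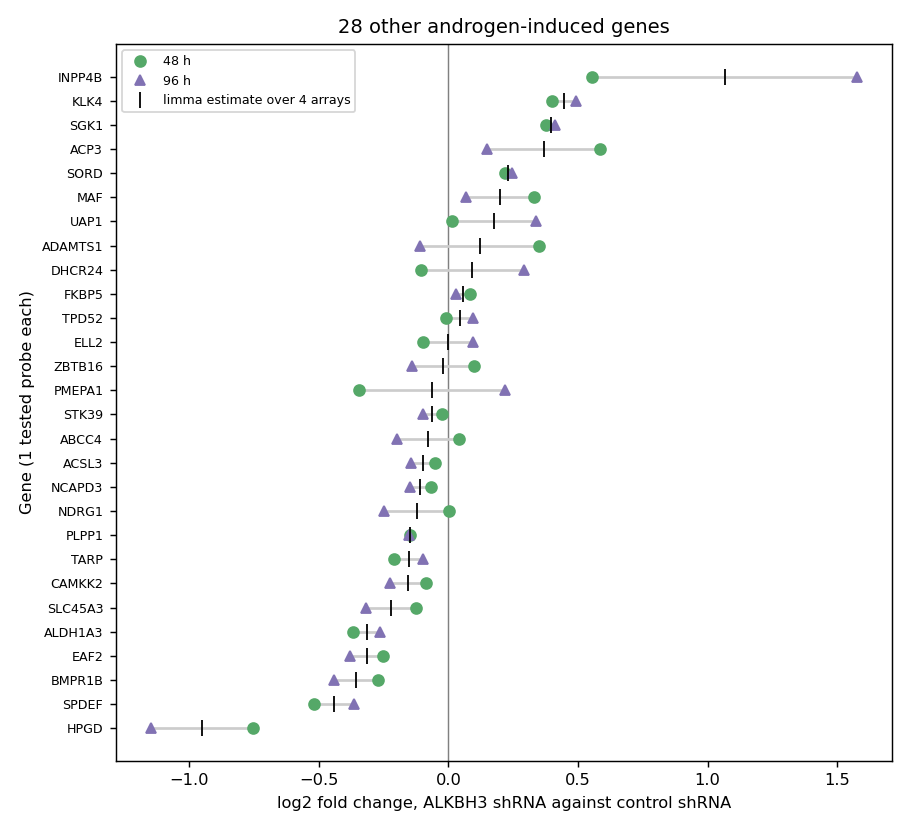
Log2 fold change of ALKBH3 shRNA against control shRNA (horizontal axis) for 28 of the 29 other androgen-induced genes that were tested (vertical axis, 1 probe each), with circles for 48 h, triangles for 96 h and ticks for the limma estimate over 4 arrays. The genes spread on both sides of 0, from HPGD at -0.95 to INPP4B at 1.07.

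Of the factors that work with the androgen receptor all 14 were well above background on all 4 arrays, 0 passed the cutoffs and the median log2 fold change was -0.04. FOXA1 gave 11577 and 12533 at 48 h and 11556 and 10385 at 96 h, and GATA2 263 and 227, and 215 and 148. Of the other steroid receptors NR3C1, the glucocorticoid receptor, which binds the same kind of site, was well above background with log2 fold changes of 0.03 and -0.08 for its probes, and PGR was not on any array. Of 10 genes of androgen synthesis and inactivation 7 were well above background throughout and HSD3B1, HSD3B2 and SRD5A2 on none, and 0 passed the cutoffs. Of the ETS genes fused in prostate cancer ERG was not well above background, ETV1, ETV4 and ETV5 were, and 0 passed.

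The label of prostate cancer cells was set against markers. Among the luminal markers CD24 and DPP4 were well above background on all 4 arrays, ACP3 on 2 and MSMB on none. DPP4 was at -0.60 on the log2 scale (limma adjusted p = 0.388 without and 0.0602 with the replicate block). Both its ALKBH3 shRNA arrays were below both controls. CD24 was at 0.43 (limma adjusted p = 0.843 without and 0.0946 with the block), and its arrays overlapped. The epithelial keratins KRT8, KRT18 and KRT19 were well above background on all 4 arrays, as were 3 of 7 basal markers, KRT15, ITGA6 and DST, while KRT5, KRT14, TP63 and NGFR were so on none. KRT15, a basal keratin, was at -0.96 on the log2 scale (limma adjusted p = 0.337 without and 0.0370 with the replicate block), and the basal median was -0.36. Of 9 neuroendocrine markers CHGA, CHGB, INSM1, NCAM1 and SCG2 were well above background on no array. SYP was well above background on both control arrays and on neither ALKBH3 shRNA array, so it was tested only through the group in which it was high. Its log2 fold change as read was -1.10 (limma adjusted p = 0.438). With its ALKBH3 shRNA values set to the dimmest spots well above background, SYP was 1.73-fold lower. Of 6 blood markers measured 4 had a probe well above background on all 4 arrays and HBB had none. Their summed level, as log2 relative to the 75th percentile, was between -1.97 and -1.90 with control and between -1.96 and -1.88 with ALKBH3 shRNA. Of 9 stromal markers 5 had a probe well above background throughout and COL1A2, MYH11 and PDGFRB were so on no array. The summed level of the 6 tested was between 0.34 and 0.71 with control and between 0.97 and 1.09 with ALKBH3 shRNA, with a median log2 fold change of 0.65. That median was 0.32 after normexp and quantile normalization, 0.39 with the authors' values and 0.40 without the 96 h control array. The ALKBH3 shRNA arrays lay above both controls for 4 of the 6 stromal markers, against 19.6% of all tested probes. They lay below both for 1, COL3A1 at -0.41, against 16.4%, and overlapped for DES at 0.001. LUM, a matrix proteoglycan, passed the cutoffs with 67.2 and 283 at 48 h and 32.0 and 129 at 96 h, or 2.002 as a log2 fold change. The 96 h control value of LUM was not well above background, so LUM too was tested only through the group in which it was high. Limma's adjusted p for LUM was 0.508 without and 0.0245 with the replicate block. The part of the stromal and basal markers in the changes of HOXB13 and PSCA was not tested. In cells measured in bulk, fewer cells that express a gene and less RNA a cell cannot be told apart.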

How the data were processed

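RNA of 4 samples of PC3 cells was measured on Agilent 4x44K v2 arrays. The authors deposited processed spot intensities made by Feature Extraction 10.7.3.1, per the file headers, background-subtracted and detrended on each array alone. A second deposited set holds log2 intensities that the authors normalized between arrays with limma by a method not given in the sources used here, which served as an alternative. Of 43118 non-control spots between 180 and 379 an array were removed as not uniform or outliers. Spots of a probe were averaged as log2 values, and the 75th percentile of an array was subtracted, an intensity of between 1638 and 1773. Well above background was the software's flag, required in at least 0.5 of a probe's spots. R 4.3.3 and limma 3.58.1 (lmFit, eBayes) were used, without a covariate, with Benjamini-Hochberg adjustment over all 23260 tested probes, across which the deviations of same-time arrays from their group means correlated at 0.660. The pairing by time point comes from the labels and the shared slide. The RefSeq table named 24910 probes. Lists use the tested probe of a gene with the highest mean signal. Where a group was not well above background on either array, a fold was taken with its values set to the dimmest spots well above background. Such a fold is not a strict lower limit. The genes and lists were chosen with earlier results of these data known. Named were all probes of the 8 genes, close relatives and cofactors, ALKBH3, and list genes past a log2 fold change of 1 and an unadjusted p of 0.05 and one direction at 48 h and 96 h. A gene of the androgen-induced list is counted in the list but not reported here by name or plotted. Steps were tested on simulated data. Alternatives were median centring, the percentile over consistently detected probes, quantile normalization, normexp (offset 50), the authors' values, filters, time point as a block, the methods' Student test, 1 probe a gene and leaving out each array. The fit with time point as its own term, and its alternatives, were added after seeing the data.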

Additional observations from a re-analysis of the deposited data

Results flagged for a closer look

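The STEAP2 probe A_33_P3218925 moved in opposite directions at the time points, its log2 fold change being 0.21 on the 48 h slide and -0.17 on the 96 h slide, each 1 array against 1. The difference between the time points was not tested.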

How the results depend on the processing

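Between the shRNAs, the 8 tested probes of the prostate genes kept their direction and their side of the adjusted p of 0.05 in all settings other than those given here. HOXB13 (-0.78) passed in the fit that took the time point for a replicate block (limma adjusted p = 0.0426), and the block changed no other of these calls. The STEAP2 probe A_33_P3218925 turned to -0.057 after median centring, -0.12 after quantile normalization, -0.038 after normexp and quantile normalization and -0.074 with the authors' values, and its difference between time points to -0.079 after quantile normalization. With each array left out the log2 fold change ran from -0.091 to 0.13 for that probe, from -0.16 to 0.41 for TMPRSS2, from -0.10 to 0.32 for the STEAP2 probe A_23_P428260 and from -0.29 to 0.022 for the STEAP1 probe A_24_P406334. The counts of higher and lower probes at the study's cutoffs, 226 and 50, were 82 and 26 after normexp and quantile normalization, 526 and 104 with no filter on dim probes, 68 and 24 with the unpaired Student test, 165 and 33 with 1 probe a gene, 118 higher with the authors' values and 136 higher with a filter on all 4 arrays. With each array left out they ran from 253 to 427 and from 50 to 125. They were 180 and 73 after median centring and 170 and 68 after quantile normalization, a smaller share of higher probes. The median log2 fold change of the androgen-induced genes was -0.14 after median centring and ran from -0.11 to 0.0021 with each array left out. The cause of these differences was not tested. The count of prostate gene probes above background on all arrays was 8, and 9 by the software's less strict flag. With an array left out the time points are no longer balanced between the shRNAs, so a time difference enters the change between them. The lone array of an shRNA is then assumed to vary like the other group. The fit with both shRNA and time point was not run so, since no residual degrees of freedom remain.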
